A study of Mus musculus with 6 samples.

Results

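The genes of zinc handling in pancreatic islets are described here, chosen by name: the zinc exporters Slc30a8, Slc30a1, Slc30a5 and Slc30a7, the zinc importers Slc39a6, Slc39a7 and Slc39a14, the metallothionein genes Mt1 and Mt2, and Mtf1. These 10 genes were found by Ensembl ID among 56980 gene IDs with counts, and all 10 passed the filter on low counts. Total RNA came from whole islets of 14-week-old mice. The knockout group held 3 libraries from mice of genotype SSBP3F/F; MIP-CreER, and the control group held 3 libraries from littermates of genotype SSBP3F/F, so both groups carried floxed Ssbp3 and differed by MIP-CreER, a Cre fused to an estrogen receptor domain and driven by the mouse insulin promoter. SSBP3 is a nuclear partner of LDB1, the cofactor of LIM-homeodomain factors such as ISL1. Mice with the transgene and unfloxed Ssbp3 were not analysed here, and effects of the transgene and of the deletion cannot be told apart.

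Beta cells hold more zinc than most cells, because insulin is packed in secretory granules as crystals of hexamers built around zinc ions. Proteins of the SLC30 (ZnT) family move zinc out of the cytosol, into granules, the Golgi or the outside of the cell, and proteins of the SLC39 (ZIP) family move it into the cytosol. Metallothioneins are small proteins that bind cytosolic zinc through their cysteines, and MTF1 is the zinc-sensing transcription factor that switches on metallothionein genes and the exporter gene Slc30a1 when zinc is high.

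Library totals ranged from 14907641 to 93841878 counts in knockout and from 17587055 to 225428920 counts in control libraries, and the shallowest library of each group was numbered 1. Levels are given in CPM, counts scaled to a common TMM-corrected library size. The labelled tissue held its defining transcripts: the 9 beta-cell markers summed to 141700 to 159400 CPM in knockout and 188700 to 243800 CPM in control libraries. Markers of 10 acinar genes, the enzymes of the exocrine pancreas, summed to 22550 to 77110 CPM in knockout and 28650 to 57380 CPM in control libraries, so exocrine RNA was present in every library. In whole islets, fewer cells of a type and less RNA per cell cannot be told apart. The targeted gene Ssbp3 measured 52.3, 58.1 and 57.1 CPM in knockout 1, 2 and 3 and 65.8, 81.3 and 74.2 CPM in control 1, 2 and 3, without overlap but not past the threshold (log2 fold change -0.40, edgeR adjusted p = 0.0581).

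Of the 10 zinc genes, Slc30a7 fell in knockout islets and none rose by edgeR's quasi-likelihood test at a Benjamini-Hochberg adjusted p under 0.05. Over all 18558 genes tested, 7.07% were called, with 3.35% of all genes lower and 3.72% higher in knockout, so 1 of 10 is near the background and is not a result about the set. The calls were 691 higher and 621 lower over all genes, and 613 higher and 829 lower with upper-quartile factors. At an unadjusted p under 0.05 there were 3 members lower and 0 higher, beside 10.7% of all genes lower and 10.9% higher. DESeq2 called 2 members lower and 0 higher, beside 6.15% of the genes it adjusted lower and 6.9% higher, and limma-voom called 1 lower and 0 higher, beside 4.45% and 4.84%. In Slc30a5, Slc30a7 and Mt2 the knockout libraries all lay below the control libraries, 3 of 10 members, while 14.1% of all genes were lower without overlap and 28.0% were apart in either direction. No member had every knockout library above every control library, against 14.0% of all genes. The median log2 fold change of the 10 was -0.23, beside -0.0016 over all genes tested, with 7 values negative and 3 positive.

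**Figure D1:**
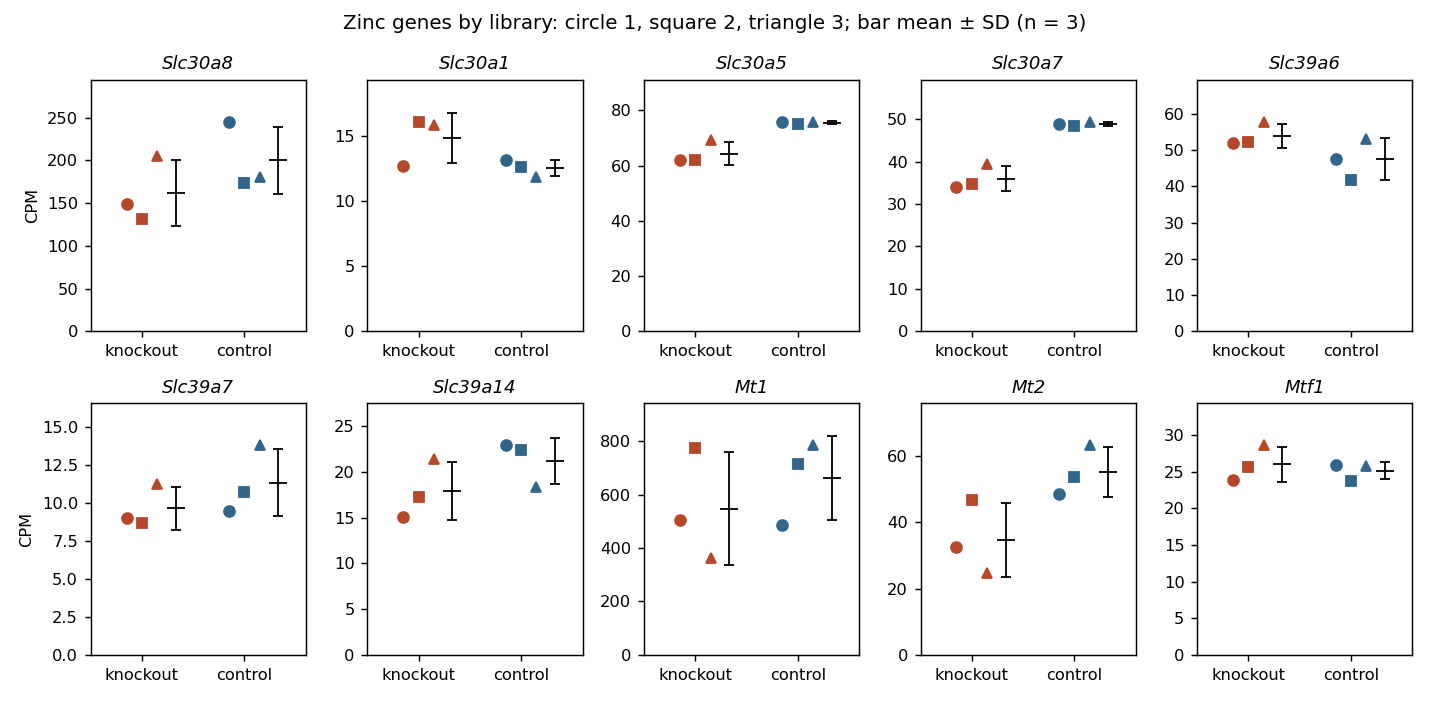
Level in CPM (y axis, from 0) of the 10 zinc genes in the 3 knockout (red, left) and 3 control libraries (blue, right), with symbols for library 1 (circle), 2 (square) and 3 (triangle) and the mean ± SD beside each group. Groups are apart for Slc30a5, Slc30a7 and Mt2 and overlap for the other 7 genes, with the widest spread in Mt1.

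Levels of the 10 genes were compared per kilobase of merged exons, since longer transcripts collect more reads. Mt1 stood first, with 440 ± 169 CPM per kilobase in knockout and 531 ± 126 in control islets (SD, n = 3 each). Slc30a8 followed with 82.0 ± 19.6 CPM per kilobase in knockout and 101.5 ± 20.02 in control islets, and Mt2 with 58.9 ± 19.0 in knockout and 93.8 ± 12.6 in control islets. The ranges of Slc30a8 and Mt2 overlapped among control libraries, so their order is not set. Slc39a6, the importer ZIP6, came next with 13.3 ± 0.819 CPM per kilobase in knockout and 11.7 ± 1.42 in control islets, overlapping in control libraries with Slc30a5 at 8.82 ± 0.568 in knockout and 10.4 ± 0.0747 in control islets. The remaining 5 genes lay between 1.70 and 3.73 CPM per kilobase in knockout and between 2.01 and 4.40 in control islets, in the control order Slc30a7, Slc39a7, Mtf1, Slc30a1 and Slc39a14. Slc30a7 and Slc39a7 overlapped in control libraries. With the longest transcript as the length, Mt2 came before Slc30a8, Slc30a5 before Slc39a6 and Slc39a14 before Mtf1 in control islets.

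**Figure D2:**
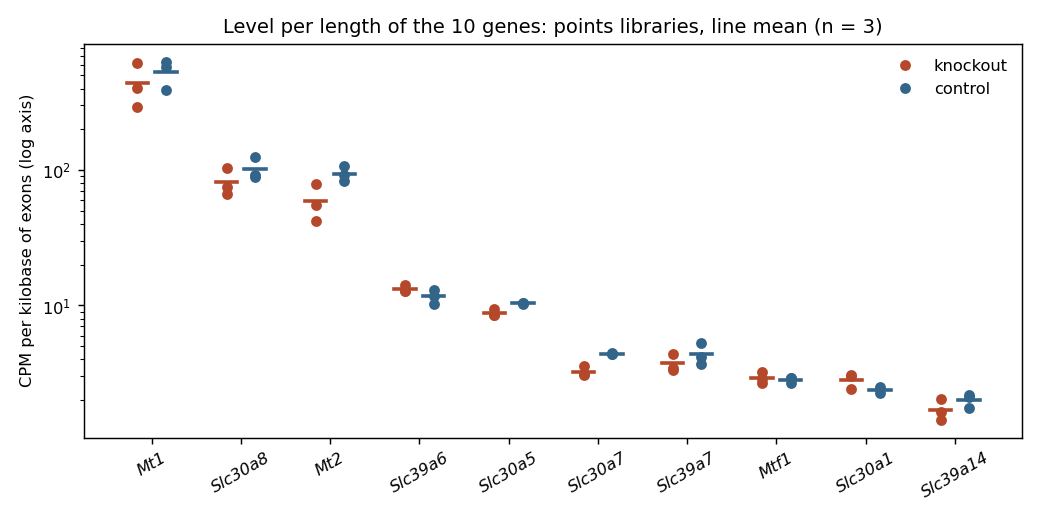
Level per length in CPM per kilobase of merged exons (y axis, log scale) of the 10 genes, in the order of their control means, with a point per library and a line at the mean of knockout (red, left) and control (blue, right). Mt1 lies above Slc30a8 and Mt2, and these lie above the other 7 genes in every library.

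Slc30a8 (ENSMUSG00000022315) encodes ZnT8, the transporter that loads insulin granules with zinc. It measured 148, 131 and 205 CPM in knockout 1, 2 and 3 and 245, 174 and 181 CPM in control 1, 2 and 3. Knockout 1 and 2 lay below every control library, while knockout 3 lay above control 2 and control 3, so the groups overlapped. Its log2 fold change was -0.31 (SE 0.179, edgeR adjusted p = 0.361), and it was not past the threshold in any of 15 alternative settings (adjusted p 0.0607 to 0.889). Its size moved with single libraries: it was -0.52 without knockout 3, -0.14 without control 1, and -0.17 without knockout 2. Without both shallow libraries it was -0.08, and with length and GC offsets -0.16.

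Other beta-cell genes were set beside Slc30a8 in the same libraries. Of the 9 markers, 3 fell in knockout islets and none rose by edgeR, beside 3.35% of all genes lower. DESeq2 and limma-voom each called 5 lower, beside 6.15% and 4.45% of the genes they adjusted. In 7 of the 9 the knockout libraries all lay below the control libraries, beside 14.1% of all genes. Mafa, an insulin gene activator, fell to 87.6, 75.4 and 138 CPM in knockout 1, 2 and 3, against 235, 182 and 249 CPM in control 1, 2 and 3 (log2 fold change -1.15, edgeR adjusted p = 0.0156). G6pc2, the islet glucose-6-phosphatase gene, had a log2 fold change of -1.22 and fell, and so did Ucn3, the gene of the peptide urocortin 3, at -0.80 (adjusted p of 0.00175 and 0.0176 by edgeR). Pdx1, a transcription factor of islet development, measured 68.4, 63.6 and 83.7 CPM in knockout 1, 2 and 3 and 94.5, 87.4 and 98.8 CPM in control 1, 2 and 3, apart but not called (edgeR adjusted p = 0.0888). Pdx1 was called with upper-quartile factors (edgeR adjusted p = 0.0449) and without knockout 3 (0.0224). Without both shallow libraries the calls of Mafa, G6pc2 and Ucn3 ended, and Pdx1 was not called. Leaving out control 1, control 3 or knockout 1 also ended the call of Mafa, at adjusted p of 0.0607, 0.0625 and 0.0611, and leaving out control 1, knockout 1 or knockout 2 that of Ucn3, at 0.0614, 0.0809 and 0.0548; length and GC offsets ended both (0.0969 and 0.192).

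Within the knockout group, Slc30a8 was highest in knockout 3 and lowest in knockout 2, as were Mafa, Ucn3 and Pdx1. Of the 9 beta-cell markers, 7 were highest in knockout 3, while 36.1% of all genes tested were highest in that library among the 3; the others, Iapp and Nkx6-1, were highest in knockout 1. The 10 acinar markers were all highest in knockout 2 and all lowest in knockout 3, with sums of 37770, 77110 and 22550 CPM in knockout 1, 2 and 3, and their part in the order of Slc30a8 was not tested.

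**Figure D3:**
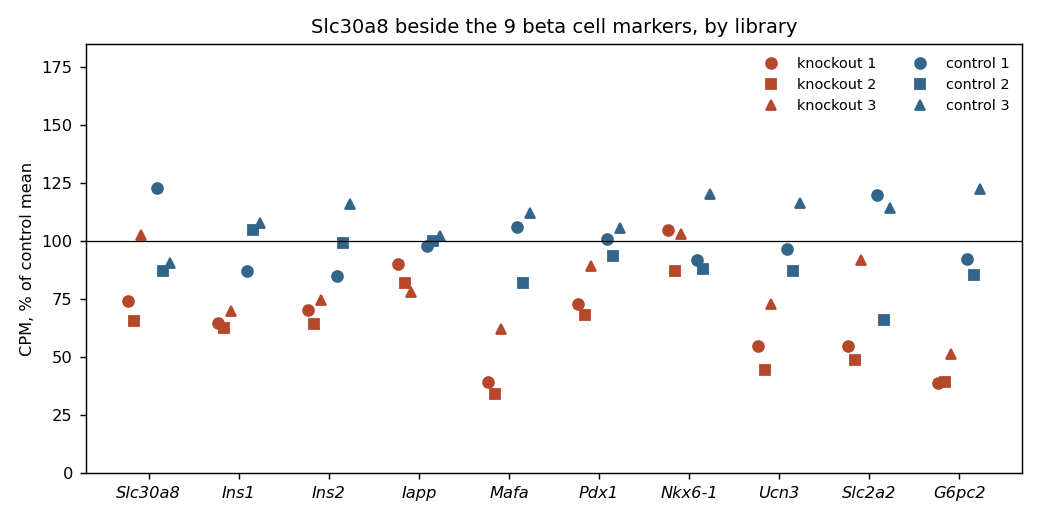
Slc30a8 beside the 9 beta-cell markers, as CPM in percent of each gene's control mean (y axis, from 0), with a symbol for each knockout (red, left) and control library (blue, right). The triangle of knockout 3 is the highest red symbol for Slc30a8 and 7 markers but not for Iapp and Nkx6-1, and for Slc30a8 it lies among the control libraries.

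Slc30a8 was also set against the insulin transcripts, which were themselves lower in each knockout library than in any control library. By edgeR, neither Ins1 (log2 fold change -0.61, adjusted p = 0.1085) nor Ins2 (-0.52, 0.2345) was called, but both were called by DESeq2 (0.000159 and 0.00596), by limma-voom (0.0137 and 0.04215) and by edgeR without a filter (0.00565 and 0.0330). The ratio therefore moves with both its parts. Slc30a8 amounted to 1.13, 1.08 and 1.47 CPM per 1000 CPM of Ins1 and Ins2 together in knockout 1, 2 and 3, and to 1.51, 0.908 and 0.835 in control 1, 2 and 3. The groups overlapped, with means of 1.23 ± 0.212 in knockout and 1.08 ± 0.368 in control islets (SD, n = 3 each; exact two-sided permutation p = 0.6, where 3 against 3 allows no p under 0.1). Among 8 genes of insulin granule cargo, Ins1 and Ins2 included, 2 rose and 1 fell by edgeR, beside 3.72% of all genes higher and 3.35% lower. DESeq2 and limma-voom each called 2 higher and 3 lower. Of the genes they adjusted, DESeq2 called 6.9% higher and 6.15% lower, and limma-voom 4.84% and 4.45%. Chgb, which encodes the granule protein chromogranin B, rose to 12965, 10716 and 8244 CPM in knockout 1, 2 and 3, against 2102, 3504 and 2908 CPM in control 1, 2 and 3 (log2 fold change 1.91, SE 0.235, edgeR adjusted p = 0.000538). Chga, which encodes chromogranin A, rose with a log2 fold change of 0.79 (adjusted p = 0.0352 by edgeR), and Pcsk1, the proinsulin-processing convertase, fell with one of -0.68 (0.0105). Without both shallow libraries none of these 3 was called (adjusted p 0.0776 for Chgb, 0.375 for Chga and 0.183 for Pcsk1), and the calls of Chga and Pcsk1 also ended without single libraries. Chga was not called when control 1, control 2, knockout 1 or knockout 2 was left out, at adjusted p of 0.163, 0.0858, 0.163 and 0.0730, or with upper-quartile factors (0.0508), nor Pcsk1 without knockout 1 or knockout 2 (0.0697 and 0.0549).

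The genes whose log2 CPM followed Slc30a8 most closely over the 6 libraries were Herpud2, Far1, Gpr85, Lix1l and Ap1s2, with Pearson's r of 0.993, 0.983, 0.980, 0.979 and 0.978. They are the 5 highest among 10737 genes of at least 5 CPM on average, so these values describe the 6 libraries only. None of the 5 was called between the groups (edgeR adjusted p 0.169 to 0.727).

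Slc30a7 (ENSMUSG00000054414) encodes ZnT7, which moves zinc from the cytosol into the Golgi and early secretory pathway, where zinc enzymes receive their metal. It fell to 34.0, 34.7 and 39.5 CPM in knockout 1, 2 and 3, against 48.9, 48.4 and 49.5 CPM in control 1, 2 and 3. The control libraries lay close together, and the highest knockout library lay below the lowest of them. Its exons share bases on the opposite strand with the gene models Gm43106 and Gm6649, which had 0 counts in every library. The difference was 1.36-fold (log2 fold change -0.44, SE 0.116, edgeR adjusted p = 0.0389). The call was lost without control 1, 2 or 3 (adjusted p 0.102, 0.148 and 0.0894), without knockout 1 or 2 (0.129 and 0.140) and without both shallow libraries (0.222), while the log2 fold change stayed between -0.56 and -0.40 over the 15 alternatives.

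Slc30a5 (ENSMUSG00000021629) and Slc30a6 encode ZnT5 and ZnT6, which work as a pair in the same early secretory compartments. Slc30a5 measured 62.0, 61.9 and 69.1 CPM in knockout 1, 2 and 3 and 75.9, 75.0 and 75.9 CPM in control 1, 2 and 3. The groups did not overlap, yet the gene did not pass the test (log2 fold change -0.23, SE 0.106, edgeR adjusted p = 0.228). Slc30a6 measured 11.1, 13.0 and 11.3 CPM in knockout 1, 2 and 3 and 17.6, 17.2 and 15.9 CPM in control 1, 2 and 3. It also separated the groups without passing the test (log2 fold change -0.51, SE 0.153, edgeR adjusted p = 0.0640), and was called by DESeq2, with a filter of 1 CPM and with upper-quartile factors (adjusted p 0.0295, 0.0488 and 0.0441). Together the 3 exporters of this compartment, added up after their values were seen, summed to 112 ± 6.78 CPM in knockout and 141.5 ± 0.965 CPM in control islets (SD, n = 3 each).

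Slc39a13 encodes ZIP13, an importer that releases zinc from Golgi and vesicles into the cytosol. It measured 20.6, 23.8 and 20.5 CPM in knockout 1, 2 and 3 and 30.3, 31.5 and 28.1 CPM in control 1, 2 and 3. The groups did not overlap, and the gene lay just short of the threshold (log2 fold change -0.47, SE 0.132, edgeR adjusted p = 0.0527, and 0.0131 to 0.238 over 15 alternatives, called in 5). Its annotated exons share bases with the proteasome gene Psmc3 on the opposite strand, and since the strand setting of the counting is not given, reads of the pair cannot be told apart; Psmc3 measured 91.9 ± 10.1 CPM in knockout and 115 ± 12.1 CPM in control islets (SD, n = 3 each).

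Slc39a7 (ENSMUSG00000024327) encodes ZIP7, which lets zinc out of the endoplasmic reticulum. It measured 8.99, 8.66 and 11.3 CPM in knockout 1, 2 and 3 and 9.48, 10.7 and 13.8 CPM in control 1, 2 and 3, with overlap (log2 fold change -0.24, SE 0.197, edgeR adjusted p = 0.543). Its exons share bases with those of the gene model Gm20427 on the same strand, and the sources do not say how reads in shared exons were counted, so its level is uncertain.

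The plasma membrane transporters were not called. Slc30a1 (ENSMUSG00000037434), the exporter ZnT1, measured 12.7, 16.1 and 15.9 CPM in knockout 1, 2 and 3 and 13.2, 12.6 and 11.9 CPM in control 1, 2 and 3. Knockout 2 and 3 lay above every control library and knockout 1 among them (log2 fold change 0.26, SE 0.161, edgeR adjusted p = 0.400). Its exons share bases with 1700034H15Rik on the opposite strand, at 0.0546 ± 0.0570 CPM in knockout and 0.207 ± 0.0285 CPM in control islets (SD, n = 3 each). Slc39a6 (ENSMUSG00000024270) measured 52.0, 52.1 and 57.8 CPM in knockout 1, 2 and 3 and 47.6, 41.6 and 53.2 CPM in control 1, 2 and 3, with overlap (0.19, SE 0.124, adjusted p = 0.432 by edgeR). Slc39a14 (ENSMUSG00000022094), the importer ZIP14, which also carries iron and manganese, measured 15.1, 17.3 and 21.4 CPM in knockout 1, 2 and 3 and 22.9, 22.4 and 18.3 CPM in control 1, 2 and 3. Knockout 3 lay among the control libraries and the other knockout libraries below them (-0.23, SE 0.166, edgeR adjusted p = 0.469).

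The metallothionein genes were set beside the 300 bases around their annotated starts. The sequences are RefSeq promoters of build GRCm38.p6, from 250 bases before the annotated start to 50 after it, and are shown for Mt1, Mt2 and Slc30a1, known targets of MTF1, and for Mt3 and Slc30a7, the called genes of the family. Capitals mark matches on either strand to the core of the metal response element to which MTF1 binds, searched as TGCACNC and TGCGCNC. Mt1 lies at chr8:94178839-94179138, Mt2 at chr8:94172368-94172667, Mt3 at chr8:94152357-94152656 and Slc30a1 at chr1:191906531-191906830, all on the plus strand, and Slc30a7 at chr3:116007357-116007656 on the minus strand.
Mt1: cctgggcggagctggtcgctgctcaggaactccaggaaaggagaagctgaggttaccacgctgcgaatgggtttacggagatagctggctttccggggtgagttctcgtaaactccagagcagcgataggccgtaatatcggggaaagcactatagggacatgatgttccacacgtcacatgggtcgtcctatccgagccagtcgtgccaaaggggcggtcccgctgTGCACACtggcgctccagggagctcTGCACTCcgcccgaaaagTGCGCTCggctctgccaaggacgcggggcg
Mt2: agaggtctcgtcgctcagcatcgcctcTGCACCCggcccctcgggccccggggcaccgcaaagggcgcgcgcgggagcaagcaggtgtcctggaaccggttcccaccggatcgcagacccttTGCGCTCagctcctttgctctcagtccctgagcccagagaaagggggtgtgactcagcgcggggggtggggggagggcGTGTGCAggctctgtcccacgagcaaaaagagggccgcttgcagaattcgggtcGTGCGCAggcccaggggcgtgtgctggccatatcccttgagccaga
Mt3: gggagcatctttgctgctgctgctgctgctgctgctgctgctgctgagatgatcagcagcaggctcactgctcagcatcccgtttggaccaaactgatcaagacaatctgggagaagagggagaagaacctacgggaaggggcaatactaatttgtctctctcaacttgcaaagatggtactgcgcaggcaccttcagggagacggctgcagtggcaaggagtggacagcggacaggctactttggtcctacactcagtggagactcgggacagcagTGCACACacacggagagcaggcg
Slc30a1: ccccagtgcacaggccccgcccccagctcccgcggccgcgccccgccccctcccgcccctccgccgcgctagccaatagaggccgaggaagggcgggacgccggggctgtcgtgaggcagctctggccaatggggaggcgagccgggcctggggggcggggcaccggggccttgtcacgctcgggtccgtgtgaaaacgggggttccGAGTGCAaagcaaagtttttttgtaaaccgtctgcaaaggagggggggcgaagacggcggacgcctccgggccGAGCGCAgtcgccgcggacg
Slc30a7: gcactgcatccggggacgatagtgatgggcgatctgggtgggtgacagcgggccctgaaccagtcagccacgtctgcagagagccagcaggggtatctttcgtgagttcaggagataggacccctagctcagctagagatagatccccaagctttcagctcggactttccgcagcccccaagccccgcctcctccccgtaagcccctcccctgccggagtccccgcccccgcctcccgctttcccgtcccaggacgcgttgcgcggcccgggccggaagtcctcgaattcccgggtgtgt
Mt2 held 4 matches, Mt1 held 3, Slc30a1 held 2, Mt3 held 1 and Slc30a7 held 0. Among 32851 RefSeq promoters of this length, 25.7% held at least 1 match, 7.11% at least 2, 1.97% at least 3 and 0.518% at least 4. In the 150 bases from 100 before to 50 after the start, Mt1 kept 3 matches and Mt2 and Slc30a1 had 2 each, where 3.32% of promoters held at least 2. In the longer window Slc30a4 and Slc30a10 held as many matches as Mt1, 3 each, and Slc30a2 as many as Slc30a1, 2. No other zinc gene held the 4 of Mt2. In the shorter window Slc30a4 had 2, Slc30a10 had 1 and Slc30a2 had 0. Of 26 zinc genes with a sequence, 15 held at least 1 match in a promoter of the longer window. Slc30a3, Slc39a5, Slc39a8, Slc39a10 and Slc39a11 have 2 promoters each, so this count of genes is not comparable with the 25.7% of single promoters. Of the 7 members with a sequence in the RefSeq table, each with 1 promoter, 4 held a match, beside 25.7% of all promoters. These were Mt1, Mt2, Slc30a1 and Slc30a5, the last with 1. The windows follow annotated starts, and the starts used in these islets were not measured, so elements nearer to another start may lie outside a window. A match is a description of letters and says nothing of binding in these islets.

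Mt1 (ENSMUSG00000031765) measured 506, 776 and 361 CPM in knockout 1, 2 and 3 and 485, 715 and 784 CPM in control 1, 2 and 3. The groups overlapped over most of their range, and the log2 fold change of -0.27 (SE 0.286) did not pass (edgeR adjusted p = 0.652). Mt2 (ENSMUSG00000031762), its neighbour on chromosome 8, measured 32.7, 46.7 and 24.6 CPM in knockout 1, 2 and 3 and 48.6, 53.7 and 63.2 CPM in control 1, 2 and 3. Its groups did not overlap, but knockout 2 and control 1 lay close together, and Mt2 was not called (log2 fold change -0.67, SE 0.206, edgeR adjusted p = 0.0791). Mt2 was called by DESeq2 (adjusted p = 0.0206), by edgeR without a filter (0.000213) and by edgeR without knockout 2, where the log2 fold change was -0.95 (0.00567). Without a filter its log2 fold change was -0.66, near that of the main fit. Mt1 and Mt2 are similar in sequence and Mt2 shares exon bases with Gm45774 on the opposite strand, so their levels are uncertain where reads could be assigned to either.

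Both genes were lowest in knockout 3 and highest in knockout 2 within the knockout group, as was the summed level of the acinar markers given above. In control libraries both were lowest in control 1 and highest in control 3, where the acinar markers summed to 36950, 57380 and 28650 CPM in control 1, 2 and 3, the same order by library number as in the knockout group, so control 3 had the highest Mt1 and the lowest acinar level; the part of exocrine RNA was not tested. The sum of Mt1 and Mt2 was 582 ± 222 CPM in knockout and 717 ± 163 CPM in control islets (SD, n = 3 each). Mt2 amounted to 6.45, 6.02 and 6.82 per 100 CPM of Mt1 in knockout 1, 2 and 3 and to 10.01, 7.51 and 8.06 in control 1, 2 and 3, a ratio taken after the values were seen, in which the knockout libraries all lay below the control libraries.

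The genes whose log2 CPM was closest to that of Mt1 over the 6 libraries were Washc1, Cldn7, Tex264, Impdh2 and Dtwd1, with Pearson's r of 0.981, 0.981, 0.976, 0.975 and 0.971 among the same 10737 genes. Of these, Cldn7, an epithelial claudin gene, measured 125, 160.2 and 107 CPM in knockout 1, 2 and 3 and 119, 149 and 148 CPM in control 1, 2 and 3. None of the 5 was called between the groups (edgeR adjusted p 0.586 to 0.887).

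Mtf1 (ENSMUSG00000028890) itself measured 23.8, 25.6 and 28.6 CPM in knockout 1, 2 and 3 and 25.9, 23.7 and 25.8 CPM in control 1, 2 and 3. The groups overlapped, and the difference (log2 fold change 0.05, SE 0.132, edgeR adjusted p = 0.863) turned to -0.10 with length and GC offsets and to -0.02 without knockout 3. Its exons share bases with 1110065P20Rik on the opposite strand, so its level is uncertain too. The 7 other genes known as MTF1 targets were Gclc, Selenow, Ndrg1, Csrp1, Slc39a10, Slc40a1 and Pgf. They were not divided into induced and repressed targets, so their counts by direction have no set expectation. Slc39a10 is also among the other zinc transporter genes counted below. Of the 7, 1 rose and none fell by edgeR, beside 3.72% of all genes higher and 3.35% lower. At an unadjusted p under 0.05, 2 were higher and 0 lower, beside 10.9% and 10.7% of all genes. DESeq2 and limma-voom each called 1 higher and 0 lower, beside 6.9% and 4.84% of the genes they adjusted higher. So 1 of 7 is not a result about the set. The gene that rose was Slc40a1, which encodes the iron exporter ferroportin. It rose to 139, 108 and 140.2 CPM in knockout 1, 2 and 3, against 51.4, 58.2 and 51.1 CPM in control 1, 2 and 3. The lowest knockout library lay well above the highest control library, and the log2 fold change was 1.27 (SE 0.128, edgeR adjusted p = 0.000157). Slc40a1 was called in all 15 alternatives (adjusted p 8.27e-18 to 0.0442). The smallest of these came from edgeR without a filter, at a log2 fold change of 1.28. With a filter of 1 CPM the edgeR adjusted p was 0.000275. Ndrg1, a stress- and metal-induced gene, measured 163 ± 6.03 CPM in knockout and 137 ± 11.3 CPM in control islets without overlap (SD, n = 3 each; log2 fold change 0.26, edgeR adjusted p = 0.194). The median log2 fold change of the 7 was -0.03, and 0.15 with length and GC offsets.

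Of the 20 other zinc transporter and metallothionein genes, 16 passed the filter on low counts. By edgeR 1 fell and none rose, beside 3.35% of all genes lower and 3.72% higher, so 1 of 16 is not a result about the list. At an unadjusted p under 0.05, 3 were lower and 0 higher, beside 10.7% and 10.9% of all genes. DESeq2 called 3 lower and limma-voom 2, and neither called any higher, beside 6.15% and 4.45% of the genes they adjusted lower. In Slc30a6, Slc39a13 and Mt3 all knockout libraries lay below all control libraries, 3 of 16, and the median log2 fold change of the 16 was -0.15; the same background of 14.1% holds here. The gene that fell was Mt3 (ENSMUSG00000031760), which encodes the metallothionein best known from neurons. It fell to 0.388, 2.30 and 1.90 CPM in knockout 1, 2 and 3, against 6.55, 10.1 and 5.98 CPM in control 1, 2 and 3, from 6, 184 and 200 counts in the knockout and 116, 810 and 1326 counts in the control libraries. All 3 knockout libraries lay below all 3 control libraries, and the difference was 4.57-fold (log2 fold change -2.19, SE 0.448, edgeR adjusted p = 0.0164). The call ended without control 2 (adjusted p = 0.0755), without knockout 3 (0.0809) and without both shallow libraries (0.0642), with log2 fold changes of -1.94, -2.30 and -1.93. The 5 markers of delta and PP cells also summed to lower values, 6453 to 8664 CPM in knockout and 8674 to 14170 CPM in control libraries. So did the 9 beta-cell markers, at 141700 to 159400 CPM in knockout and 188700 to 243800 CPM in control libraries. The 7 alpha-cell markers overlapped, at 18800 to 23030 CPM in knockout and 21080 to 32440 CPM in control libraries. The part of any of these cells in Mt3 was not tested.

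**Figure D4:**
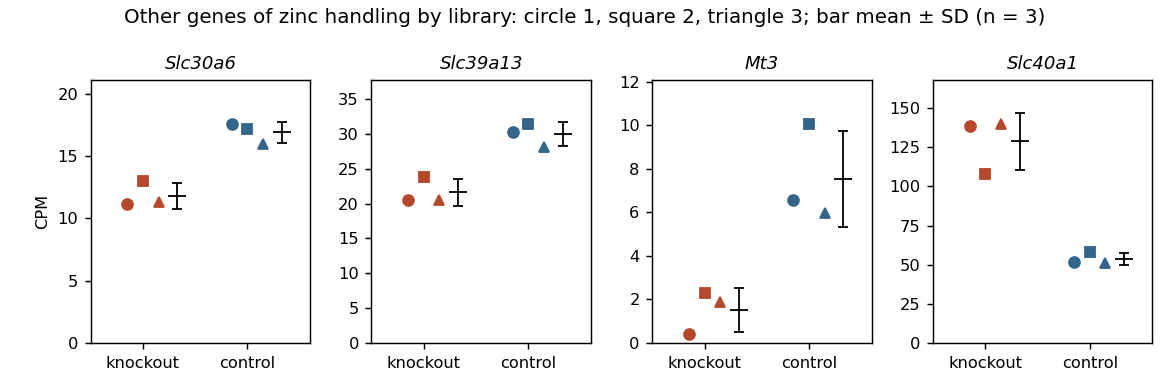
Level in CPM (y axis, from 0) of Slc30a6, Slc39a13, Mt3 and Slc40a1 in the 3 knockout (red, left) and 3 control libraries (blue, right), with symbols for library 1, 2 and 3 and the mean ± SD. The groups are apart in all 4 genes, Mt3 and Slc40a1 being called, the first lower and the second higher in knockout islets.

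None of the other zinc transporters reached the level per length of Mt1, Slc30a8 or Mt2, but several lay among or above the other 7 members. Slc39a1, the importer ZIP1, had 30.3 CPM per kilobase in knockout and 28.9 in control islets, a level below Mt2 and above Slc39a6. It measured 68.2, 78.6 and 67.9 CPM in knockout 1, 2 and 3 and 64.8, 74.3 and 65.9 CPM in control 1, 2 and 3, with overlap. Tmem163, Slc39a3, Slc39a11 and Slc39a9 had 12.8, 11.2, 8.20 and 6.68 CPM per kilobase in knockout islets and 12.7, 10.03, 10.02 and 6.27 in control islets, and none was called. Tmem163 and Slc39a9 share exon bases on the opposite strand with Mgat5 and Erh, which were called, so both levels are uncertain. Slc39a5, an importer gene of the exocrine pancreas, measured 4.14, 8.90 and 1.67 CPM in knockout 1, 2 and 3 and 6.77, 6.05 and 3.83 CPM in control 1, 2 and 3. It was highest in knockout 2 and lowest in knockout 3 of its group, as the acinar markers were. Among control libraries it was highest in control 1, while the acinar sum was highest in control 2, and both were lowest in control 3. The part of exocrine RNA was not tested. Slc30a2, the transporter gene of acinar zymogen granules, was low, with 1.17 ± 0.849 CPM in knockout and 1.39 ± 0.541 CPM in control islets (SD, n = 3 each). Slc30a10 and Mt4 had 0 counts in every library, where the floor of 3 counts stands for 0.0284 to 0.194 CPM in knockout and 0.0135 to 0.169 CPM in control libraries. Slc30a3 and Slc39a12 had at most 4 counts in a library.

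**Figure D5:**
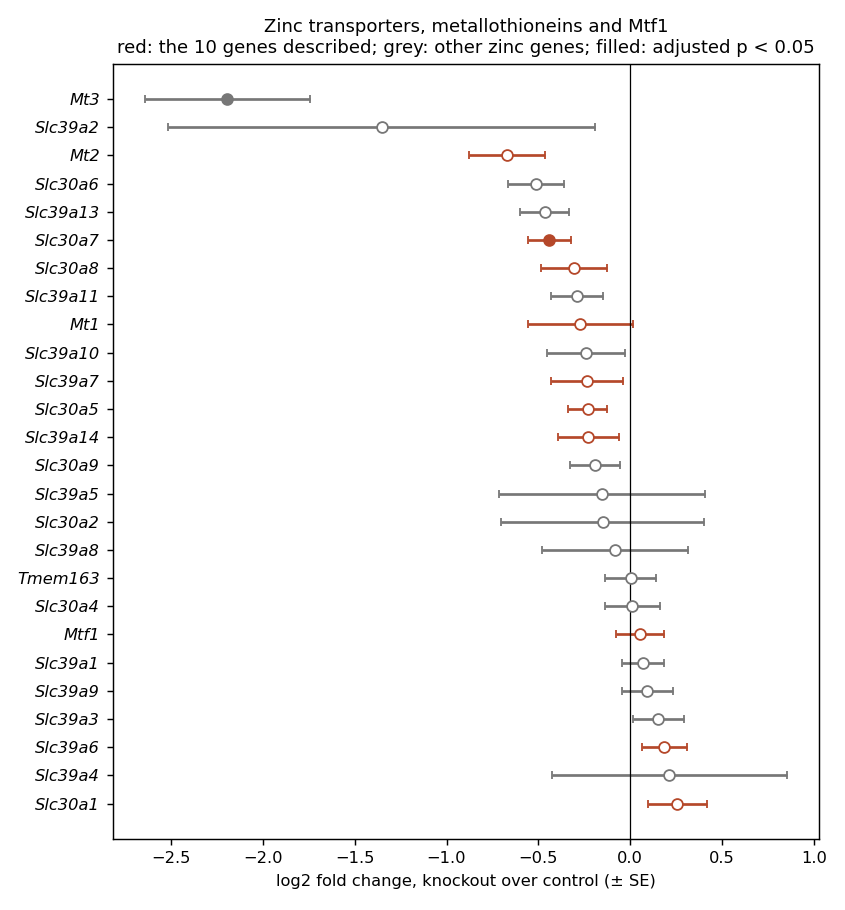
Log2 fold change of knockout over control (x axis, ± SE) of the 26 zinc genes tested, red for the 10 genes described and grey for the others, filled where the adjusted p was under 0.05. Slc30a7 and Mt3 are filled and lie left of 0; Slc30a1 has the highest value at 0.26.

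Genes of 3 responses known to induce Mt1, Mt2 or Slc39a14 in other settings were counted beside them, receptors of the interleukin-6 family included. None of 9 glucocorticoid response genes was called by edgeR, DESeq2 or limma-voom, and 0 had an unadjusted p under 0.05. Of 10 genes of the interleukin-6 and acute phase response, 1 rose and none fell (2 higher and 0 lower at an unadjusted p under 0.05). Over all genes tested, 3.72% rose and 3.35% fell by edgeR. At an unadjusted p under 0.05, 10.9% of all genes were higher and 10.7% lower. Il6ra, the interleukin-6 receptor, rose to 72.4, 59.4 and 89.9 CPM in knockout 1, 2 and 3, against 46.5, 36.0 and 47.8 CPM in control 1, 2 and 3 (log2 fold change 0.77, edgeR adjusted p = 0.0139). Leaving out control 1, control 2 or knockout 1 ended its call, at adjusted p of 0.0514, 0.0671 and 0.0519, as did leaving out both shallow libraries (0.166). Of 6 genes of the NRF2 oxidative response, 1 rose and none fell by edgeR, with 3 higher and 1 lower at an unadjusted p under 0.05. DESeq2 and limma-voom each called 2 higher and 0 lower, beside 6.9% and 4.84% of the genes they adjusted higher. Without overlap 3 were higher, Nqo1, Txnrd1 and Gclm, beside 14.0% of all genes. In lists this short the counts are not a result about these responses. Nqo1, a quinone reductase gene, rose to 9.03 ± 1.06 CPM in knockout, against 4.43 ± 1.22 CPM in control islets (SD, n = 3 each; log2 fold change 1.02, edgeR adjusted p = 0.0223). That call ended when control 1, control 2, knockout 1 or knockout 2 was left out, at adjusted p of 0.0829, 0.1097, 0.0576 and 0.0762, and with both shallow libraries left out (0.172). Txnrd1, the thioredoxin reductase gene called by the other tools, had a log2 fold change of 0.37 (adjusted p = 0.0629 by edgeR, 0.0201 by DESeq2 and 0.0379 by limma-voom). The medians of the 3 lists were 0.11, 0.23 and 0.24 on the log2 scale, beside -0.0016 over all genes tested. With a library left out they ran from 0.0192 to 0.1495, from 0.1249 to 0.3069 and from 0.0357 to 0.3341. The lowest of these came without knockout 3 for the first list and without knockout 2 for the others.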

How the data were processed

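Total RNA of whole islets was sequenced in 3 knockout and 3 control libraries. The build GRCm39 (mm39) and the tools STAR 2.7.3a, Trim Galore 0.6.7, FastQC 0.11.9 and featureCounts were used, per the submitters' processing notes. The authors deposited whole-number counts per Ensembl gene ID, not normalized. The sources used here give neither the annotation release nor the strand setting, nor whether a count is a read or a read pair; of nonzero counts, 62.3% to 73.2% were even. The count columns name a group and a number that matches no title, and nothing says that libraries came from separate animals, so p-values measure the spread between libraries, which may be technical. Libraries of 1 group differed by more than sampling noise in each pair, with a mean chi-square of at least 36.7 for a gene.

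Symbols were matched for 52073 of 56980 IDs. The test on the counts was that of edgeR 4.0.16 in R 4.3.3 (filterByExpr, TMM factors, robust quasi-likelihood test), with Benjamini-Hochberg adjustment over 18558 genes and a threshold of 0.05. The SE is the log2 fold change over the root of the test's F value. The code of the test was checked on counts simulated from edgeR's own model. Such counts cannot show how well that model holds for these libraries. Alternatives were DESeq2 1.42.0, limma-voom (limma 3.58.1), other scalings and filters, length and GC offsets (for 97.6% of genes tested), each library left out, and the shallowest library of each group left out together. Transcript lengths came from GENCODE M21 by gene ID and promoters from RefSeq, both of GRCm38, so coordinates printed are of that build. The members and lists were chosen with earlier results of these data known. Named were the members, the MTF1 targets, called genes of the other zinc and granule lists, and up to 4 genes of smallest p of each other list. The 5 genes most like Slc30a8 and Mt1, and zinc genes with their levels, were named too.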

Additional observations from a re-analysis of the deposited data

How the results depend on the processing

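Among the 10 members, 1 was called, 2 with DESeq2 or without a filter, and 0 without both shallow libraries. Leaving out single libraries gave 0 to 1. Of the other zinc genes, 1 was called, 3 with DESeq2, a filter of 1 CPM or upper-quartile factors, 2 with limma-voom or length and GC offsets, and 0 without both shallow libraries. Leaving out single libraries gave 0 to 1. Over all genes, 1312 were called, 2094 with DESeq2, 2153 without a filter and 124 without both shallow libraries, and 519 to 1309 with a library left out. Ssbp3 was called with DESeq2 (log2 fold change -0.39), a filter of 1 CPM (-0.41), length and GC offsets (-0.53), limma-voom (-0.40) and upper-quartile factors (-0.45), with adjusted p of 0.0368, 0.0412, 0.00563, 0.0464 and 0.0304. Of the members, Mtf1 alone changed sign, to -0.10 with length and GC offsets and to -0.0212 without knockout 3, in a range of -0.0212 to 0.1145 with a library left out. The cause was not tested. The 9 other members kept their sign in all 15 alternatives. The difference in summed metallothionein CPM ran from -254 to -36.1 with a library left out, and that in Slc30a8 per 1000 insulin CPM from 0.0234 to 0.359. No paired analysis was possible because the numbers of the count columns match no title and nothing says that they mark a pair, while the titles' own numbers share only 1 value between the groups. The floors cover counting error only.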
